A study of Gallus gallus with 9 samples.

Results

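The maxillary prominence is the facial bud that lies between the eye and the mouth, with the mandibular prominence below it and the frontonasal mass in front of it. Its 3 arrays, out of 9 in all, were set against the equal-weight average of the mandibular and frontonasal group means, and then against each neighbour on its own. This comparison answers in which genes the maxillary bud was intermediate, like one neighbour, or outside the range of both. The chicken embryos were untreated, were incubated at 38 °C and were taken at Hamburger Hamilton stage 18, when the buds have formed and cartilage, bone and muscle have not yet differentiated. The groups were 3 pools of maxillary prominences, 3 pools of mandibular prominences and 3 pools of frontonasal masses, the last cut from between the nasal pits. Each pool held 26 to 32 dissected pieces of mesenchyme together with its epithelium and was hybridised to 1 Affymetrix chicken array. The labels give the genotype as unknown and name no breed, sex or batch.

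The maxillary and mandibular buds are the upper and lower parts of the first pharyngeal arch, and both are filled by cranial neural crest that lacks HOX expression. The frontonasal mass receives crest from a more anterior level and lies under the forebrain and beside the nasal placodes. In mice, endothelin signalling in the lower part of the arch switches on DLX5, DLX6 and HAND2 and sets lower jaw identity, while the upper part keeps DLX1 and DLX2 without that programme. The maxillary bud goes on to form the lateral upper jaw and the palatal shelves.

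All signals are linear intensity units after each array was scaled to the same median, and 38439 probe sets were tested. The maxillary arrays resembled each other as closely as those of the other groups, with correlations of each array to the others of its group of 0.986 to 0.987, against 0.986 to 0.987 for mandibular and 0.979 to 0.981 for frontonasal arrays. The ratio of 3' to 5' signal of GAPDH, a sign of RNA quality, was 1.29, 1.25 and 1.19 in maxillary pools, 1.28, 1.24 and 1.23 in mandibular pools and 1.51, 1.27 and 1.38 in frontonasal pools. The labelled tissue was checked against its markers. Among them, PRRX1 (mesenchyme) measured 1715 to 2145 and EPCAM (epithelium) 2443 to 2655 on the maxillary arrays. Frontonasal pool 2 stood apart. The summed signal of 23 genes of liver, gut, kidney and heart was 2048 to 2136 in maxillary pools and 2589 to 2631 in mandibular pools, but 2180, 8545 and 2562 in frontonasal pools 1, 2 and 3. The main counts are therefore given with and without it. Because whole buds were measured, fewer cells of a type and less RNA per cell cannot be told apart. Replicates are separate pools, and no p value covers more than their spread.

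Against the average of its neighbours the maxillary prominence differed in 283 probe sets (0.736% of all tested, limma adjusted p under 0.05). Of these, 101 rose (0.263%) and 182 fell (0.473%) in maxillary pools. With single arrays left out the count was 113, 102 and 99 without maxillary pools 1, 2 and 3, 145, 106 and 144 without the mandibular pools, and 262, 329 and 213 without the frontonasal pools. The largest rise was in the LIM homeobox gene LHX8, and the largest fall in the distal-less gene DLX6. A difference from the average of both neighbours can arise where the maxillary bud differs from both or from only one, so each called probe set was placed in a class. Most of the 283, namely 194 or 68.6%, were like the mandibular prominence: they were called against the frontonasal mass while the 95% interval of the maxillary minus mandibular difference lay within 2-fold. A further 22 (7.77%) were like the frontonasal mass by the mirror rule, 29 (10.2%) were called in the same direction against each neighbour, and 38 (13.4%) met no class rule. By plain position, the maxillary mean lay above both neighbour means in 97 of the 101 higher probe sets and below both in 150 of the 182 lower ones. In 82 and 121 of these, all 3 maxillary arrays lay beyond all 6 others. Across all tested probe sets, 1.78% had the maxillary arrays above all 6 others and 2.17% had them below. The 283 were chosen by their difference from these same arrays, so the separation among them adds no support of its own.

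**Figure D1:**
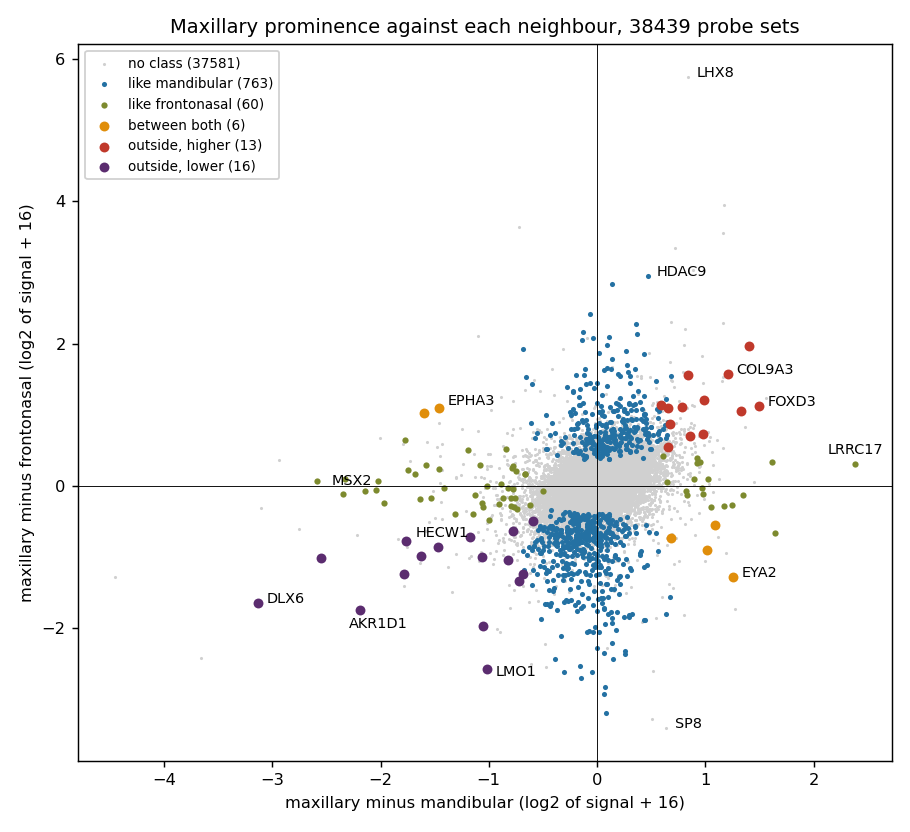
Each point is a probe set, plotted by its maxillary minus mandibular difference (horizontal axis) and its maxillary minus frontonasal difference (vertical axis), both of log2(signal + 16), with n = 3 arrays per group and colours for the classes. The cloud is taller than it is wide, and the 763 probe sets like the mandibular prominence lie along the vertical axis, while 13 and 16 probe sets lie outside both neighbours in the upper right and lower left.

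Taken one neighbour at a time, the maxillary pools differed from the mandibular pools in 101 probe sets (0.263%), 35 of them higher (0.0911%) and 66 lower (0.172%) in maxillary pools. They differed from the frontonasal pools in 866 (2.25%), 350 higher (0.911%) and 516 lower (1.34%). The 2 neighbours differed from each other in 974 (2.53%), of which 454 were higher (1.18%) and 520 lower (1.35%) in mandibular pools. Every pair shares arrays with the others, so these counts are not independent of each other. Of the 866 probe sets called against the frontonasal mass, 763 (88.1%) were like the mandibular prominence. Of the 101 called against the mandibular prominence, 60 (59.4%) were like the frontonasal mass. The 2-fold limit was wide beside these intervals, whose median half-width over all 38439 probe sets was 0.31 on the log2 scale. The share of all probe sets within that limit was not counted. These percentages, and those of the 283 above, therefore have no base rate beside them. Without frontonasal pool 2 the maxillary pools differed from the mandibular pools in 174 probe sets and from the frontonasal pools in 797, and the 2 neighbours differed from each other in 1089.

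Outside both neighbours on the high side lay 13 probe sets (0.0338%). Counted by the probe set of highest mean signal, 7 of 13009 genes (0.0538%) were in this class. Dimmer probe sets of RASL11B, COL11A1 and KLF13 were also in it, that of KLF13 below background on every array. The 7 genes include a chain of type IX collagen, a receptor for retinoic acid, mesenchymal and crest regulators and a neural tube homeobox gene. Their differences from the average ran from 0.77 to 1.39 on the log2 scale. COL9A3, a chain of type IX collagen of cartilage, measured 125, 123 and 150.5 in maxillary pools, 42.2, 45.3 and 58.1 in mandibular pools and 27.8, 36.1 and 37.9 in frontonasal pools. Every maxillary array was far above the other 6, and the difference from the neighbour average was 1.39 ± 0.11 (log2 ± SE, limma adjusted p = 0.00219). PRRX2, a paired-type homeobox gene of facial and limb mesenchyme, measured 555, 509 and 553 in the maxillary, 287, 241 and 266 in the mandibular and 267, 174 and 242 in the frontonasal pools. It was higher in maxillary pools by 0.99 ± 0.15 than in mandibular pools (adjusted p = 0.0415) and by 1.21 ± 0.15 than in frontonasal pools (adjusted p = 0.00416), with no overlap. RARB, the beta receptor for retinoic acid and itself a known target of it, measured 1010.3, 828 and 900.0 in maxillary pools, 490.1, 462 and 536 in mandibular pools and 574, 478 and 626 in frontonasal pools. The neighbours overlapped, and the lowest maxillary array was above the highest of the other 6. The difference from their average was 0.78 ± 0.11 (adjusted p = 0.0180).

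NHS, the gene of the human Nance-Horan syndrome of eye, teeth and face, measured 361, 319 and 350.3 in the maxillary, 185, 167 and 205 in the mandibular and 128, 101 and 91.9 in the frontonasal pools. The order was maxillary, mandibular, frontonasal with no overlap at either step, and the maxillary excess over the mandibular pools was 0.84 ± 0.12 (adjusted p = 0.0445). DBX2, a homeobox gene of neural tube progenitors, measured 94.8, 83.2 and 105 in maxillary pools, 53.3, 51.8 and 54.0 in mandibular pools and 47.7, 42.3 and 42.2 in frontonasal pools. The 6 neighbour arrays lay within a narrow range below the maxillary ones, and the difference from their average was 0.77 ± 0.08 (adjusted p = 0.00613). FOXD3, a forkhead regulator of early neural crest and its glial descendants, measured 57.0, 35.1 and 42.4 in the maxillary, 3.78, 3.84 and 8.69 in the mandibular and 11.8, 18.8 and 6.17 in the frontonasal pools. It was above background on 2 maxillary arrays and on no other, so its excess is only a bound, at least 1.30-fold over each neighbour. B3GAT1L was likewise below background in both neighbours, and its maxillary signals of 48.3, 54.7 and 54.5 were at least 1.55-fold above mandibular and at least 1.55-fold above frontonasal pools.

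**Figure D2:**
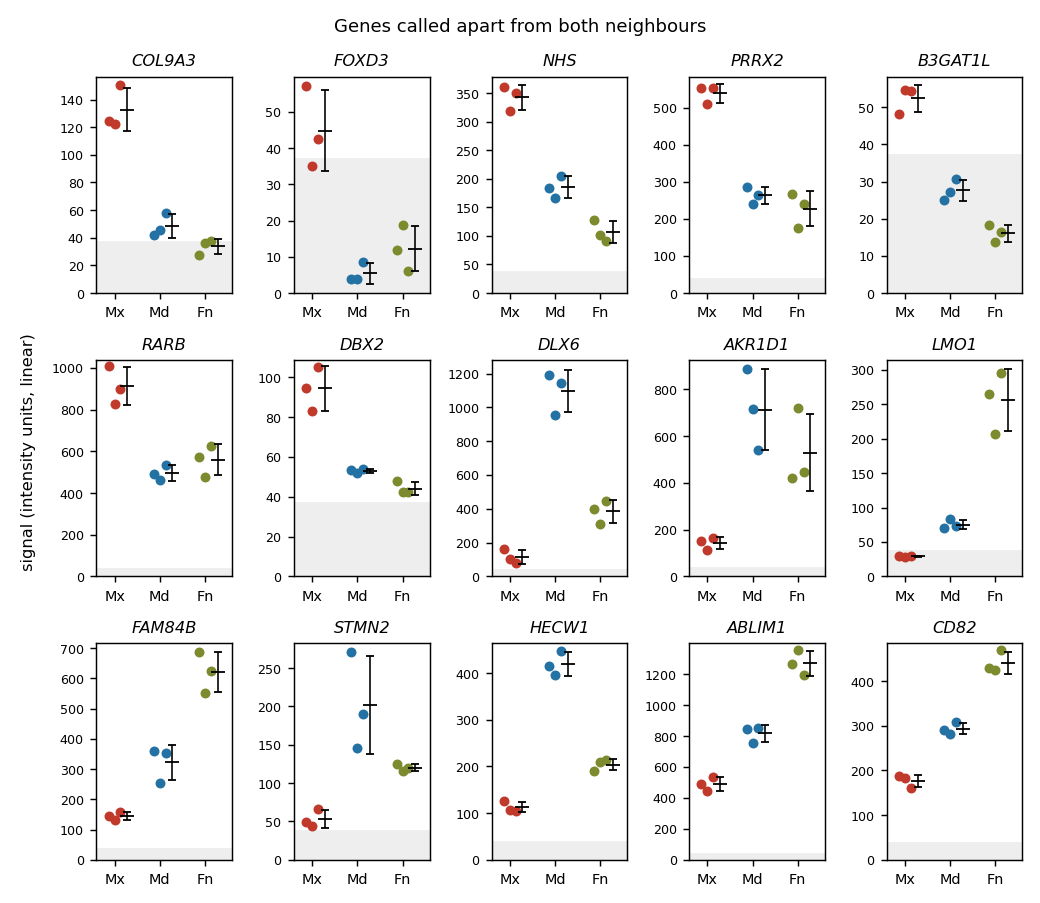
Signal of the 15 genes with the largest differences among those called apart from both neighbours, one panel per gene, with a point per array, a bar for the mean ± SD (n = 3) and a grey band up to the highest array background of 37.1; the vertical axes are linear and start at 0. From COL9A3 to DBX2 the maxillary (Mx) points lie above all mandibular (Md) and frontonasal (Fn) points, and from DLX6 to CD82 they lie below them all.

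Outside both neighbours on the low side lay 16 probe sets (0.0416%), and 11 genes (0.0846%) by their probe set of highest mean signal. A dimmer probe set of TPM2, below background on every maxillary array, was also in this class. The largest fall was in DLX6, which belongs to the lower jaw programme in mice, and others are known from neurons, steroid metabolism and the actin cytoskeleton. DLX6 measured 161, 103 and 78.6 in maxillary pools, 1193, 953 and 1143 in mandibular pools and 399, 310.0 and 446 in frontonasal pools. The maxillary arrays were the lowest 3 with a wide gap to the rest, and the signal fell by 3.13 ± 0.23 on the log2 scale against mandibular pools (adjusted p = 0.00192) and by 1.65 ± 0.23 against frontonasal pools (adjusted p = 0.00799). HECW1, a ubiquitin ligase, measured 125, 108 and 105 in the maxillary, 415, 397 and 446 in the mandibular and 190.2, 209 and 213 in the frontonasal pools. It fell by 1.76 ± 0.09 against mandibular pools (adjusted p = 0.000532) and by 0.78 ± 0.09 against frontonasal pools (adjusted p = 0.00401). DLX6 and HECW1 were the 2 genes of all 18 outside both neighbours that kept this class whichever single array was left out.

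LMO1, a LIM-only transcription cofactor, measured 29.2, 27.6 and 30.1 in maxillary pools, 70.0, 82.8 and 72.8 in mandibular pools and 265, 207 and 295 in frontonasal pools. It was not above background on any maxillary array, which puts it at least 2.13-fold below mandibular and at least 7.18-fold below frontonasal pools. AKR1D1, a reductase of steroid and bile acid metabolism, measured 152, 114 and 162 in the maxillary, 885, 717 and 539 in the mandibular and 423, 721 and 445 in the frontonasal pools. The neighbours overlapped each other and both lay far above the maxillary arrays, with a difference from their average of -1.97 ± 0.21 (adjusted p = 0.00701). STMN2, a stathmin of growing nerve fibres, measured 49.4, 43.8 and 66.6 in maxillary pools, 271, 145 and 190.2 in mandibular pools and 125, 116 and 119.8 in frontonasal pools. The maxillary arrays were the lowest 3 of the 9.

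FAM84B, ABLIM1 (an actin-binding LIM protein) and CD82 (a tetraspanin of the cell membrane) shared another order, with the frontonasal pools highest, the mandibular pools next and the maxillary pools lowest, and no overlap at either step. Their differences from the neighbour average were -1.51 ± 0.12, -1.03 ± 0.09 and -0.97 ± 0.07 (adjusted p = 0.00219, 0.00219 and 0.00205). FGF13, a member of the FGF family that stays inside the cell, measured 122, 153 and 133 in the maxillary, 246, 239 and 273 in the mandibular and 261, 343 and 293 in the frontonasal pools. Its neighbours overlapped and lay above every maxillary array, with a difference from their average of -0.94 ± 0.10 (adjusted p = 0.00750). The remaining 2 of the 11 genes were FAM69C and ADCYAP1R1, a receptor for the neuropeptide PACAP. They are named here after their values were seen, as are RASL11B, COL11A1, KLF13 and TPM2.

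The class outside both neighbours rests on 2 calls at once. When the larger of the 2 pairwise p values of a probe set was itself adjusted over all probe sets with limma, none passed in either direction, the smallest adjusted p being 0.114, while 453 probe sets higher and 493 lower than both had an unadjusted p under 0.05. Leaving out single arrays removed the class in 5 to 8 of 9 fits for the 7 higher genes, which all kept their direction against each neighbour. Against the neighbour average, COL9A3, NHS, B3GAT1L, DBX2, DLX6, HECW1, LMO1, AKR1D1, FAM84B, ABLIM1, CD82, ADCYAP1R1 and FGF13 passed in all 9 such fits. PRRX2, STMN2 and FAM69C passed in 7, FOXD3 in 6 and RARB in 4. That contrast cannot by itself place a gene outside both neighbours. HDAC9 and BHLHE22, each like a single neighbour, also passed it in all 9 fits. Without frontonasal pool 2 the class held 17 higher and 21 lower probe sets, RARB was then like the frontonasal mass, and NHS and STMN2 met no class. Not every probe set of a gene said the same. A second COL9A3 probe set was also outside both neighbours (means of 72.2 in maxillary, 17.3 in mandibular and 6.58 in frontonasal pools), but 2 others were not called. A second RARB probe set had the same order of maxillary over both (means of 527, 234 and 331) and was not called (adjusted p = 0.102), a second PRRX2 probe set was like the mandibular prominence, and a dimmer DLX6 probe set was like the frontonasal mass. A second HECW1 probe set, above background on all 9 arrays, had means of 82.1 in maxillary, 120.5 in mandibular and 99.8 in frontonasal pools and was called in no contrast (adjusted p = 0.379 against the average). A dimmer ABLIM1 probe set was like the mandibular prominence.

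The largest rises over the neighbour average were in genes that met no class, because their maxillary excess over the mandibular prominence did not pass and its 95% interval reached beyond 2-fold. LHX8, a LIM homeobox gene of oral mesenchyme needed for palate formation in mice, measured 2061, 1672 and 1714 in maxillary pools, 956, 1025 and 1025 in mandibular pools and 17.5, 28.8 and 9.52 in frontonasal pools. Every maxillary array exceeded every mandibular array, and no frontonasal array was above background. The difference from the average was 3.30 ± 0.16 (adjusted p = 0.000282), the excess over frontonasal pools was at least 53.5-fold, and that over mandibular pools was 0.84 ± 0.19 (95% interval 0.42 to 1.27, adjusted p = 0.193). COL9A1, the partner chain of COL9A3, measured 359, 309.6 and 461 in the maxillary, 166, 173 and 135 in the mandibular and 11.0, 23.9 and 17.4 in the frontonasal pools. It exceeded the average by 2.36 ± 0.16 (adjusted p = 0.00100) and the mandibular pools by 1.16 ± 0.18 (95% interval 0.75 to 1.58, adjusted p = 0.0583). Without frontonasal pool 2 this last difference passed (adjusted p = 0.0391), although 2 dimmer COL9A1 probe sets showed no such pattern. DLX1, which is shared by both parts of the arch in mice, measured 237, 259.7 and 192 in maxillary pools, 159.9, 129 and 111 in mandibular pools and 7.47, 6.46 and 9.83 in frontonasal pools. It exceeded the average by 2.03 ± 0.13 (adjusted p = 0.000823), while its excess over mandibular pools was 0.72 ± 0.15 (95% interval 0.39 to 1.05, adjusted p = 0.150). A second DLX1 probe set of almost the same mean brightness was like the mandibular prominence, with means of 104.7 in maxillary, 100.5 in mandibular and 34.0 in frontonasal pools, and was not called against the average (adjusted p = 0.0603).

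Also above the neighbour average were SLITRK6, a membrane protein of neurites, by 1.40 ± 0.21 (adjusted p = 0.0243), and ASL1, which encodes delta-crystallin of the lens in birds, by 1.35 ± 0.21 (adjusted p = 0.0322). ASL1 measured 145, 66.4 and 108 in the maxillary, 38.6, 28.6 and 43.7 in the mandibular and 33.4, 24.0 and 18.1 in the frontonasal pools, so all maxillary arrays were above the rest but differed widely among themselves. With 1 array left out, the SLITRK6 and ASL1 calls were lost in 6 and 7 of 9 fits. On the low side, ANO1, a chloride channel, fell by 1.56 ± 0.15 (adjusted p = 0.00506) and SP8, a zinc finger gene of frontonasal ectoderm, by 1.39 ± 0.17 (adjusted p = 0.0116) against the average. SP8 measured 55.2, 35.8 and 46.5 in maxillary pools, 15.6, 24.3 and 32.1 in mandibular pools and 703, 511 and 721 in frontonasal pools. Its maxillary level was slightly above the mandibular one, so the fall against the average came from the frontonasal pools. LOC419390, whose role is not given in the annotation, fell by 1.47 ± 0.18 (adjusted p = 0.0123).

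The class like the mandibular prominence was by far the largest, with 763 probe sets (1.98%), 302 of them higher and 461 lower in maxillary than in frontonasal pools. Counted by the probe set of highest mean signal, it held 400 genes (3.07%). The rule holds the maxillary minus mandibular difference of the tested log2 values within 2-fold, and these values understate differences of dim genes. Groups that are both below background can therefore meet it without their levels being shown to be alike. The same holds for the mirror rule. Nor does the rule ask that the mandibular pools differ from the frontonasal ones. The cartilage matrix gene MATN4, for example, had means of 63.3 in maxillary, 34.6 in mandibular and 26.5 in frontonasal pools. Its mandibular and frontonasal pools were not called apart (limma adjusted p = 0.329). HDAC9, a histone deacetylase, measured 556, 592 and 606 in the maxillary, 408, 429 and 417 in the mandibular and 62.7, 63.8 and 58.4 in the frontonasal pools. The maxillary level was 9.49-fold the frontonasal one (adjusted p = 2.06e-06) and 1.40-fold the mandibular one (adjusted p = 0.0597). WNT2B, a secreted WNT ligand, measured 107, 134 and 124 in maxillary pools, 104, 117 and 105 in mandibular pools and 2.22, 5.14 and 2.27 in frontonasal pools. Maxillary and mandibular arrays overlapped, and all frontonasal arrays were below background, at least 3.58-fold lower.

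MAB21L2, a gene of facial and eye development, was the other high one among the 8 largest, at 474, 469 and 319 in the maxillary, 538, 535 and 284 in the mandibular and 60.9, 96.7 and 44.7 in the frontonasal pools. The remaining 5 were low in both parts of the arch, and NR2E1 and SOX3 among them belong to a list of forebrain genes. The summed signal of the 17 forebrain genes measured was 862 to 1002 in maxillary pools, 907 to 1165 in mandibular pools and 2131 to 2755 in frontonasal pools. Against the frontonasal pools 7 of the 17 were lower in maxillary pools and none higher by limma, with or without frontonasal pool 2. Of all 13009 genes, 288 were lower and 170 higher in the fit of all arrays. The part of forebrain cells in this class was not tested. NR2E1, an orphan nuclear receptor of forebrain and retina progenitors, measured 1.65, 1.89 and 2.45 in maxillary pools, 4.83, 6.13 and 7.67 in mandibular pools and 113, 69.5 and 106 in frontonasal pools, which places maxillary and mandibular pools below background and at least 2.67-fold below frontonasal pools. SOX3, a gene of neural progenitors, measured 26.9, 9.26 and 37.0 in the maxillary, 22.9, 28.2 and 12.7 in the mandibular and 257, 189 and 352 in the frontonasal pools. SOX8, of neural crest and glia, was lower by 2.45 ± 0.26 on the log2 scale in maxillary than in frontonasal pools, against a maxillary minus mandibular difference of 0.15 ± 0.26 (95% interval -0.45 to 0.75). HRASLS, an enzyme of phospholipid metabolism, and OPTC, the matrix proteoglycan opticin, were below background in both parts of the arch. They were at least 3.70-fold and at least 4.53-fold lower in maxillary than in frontonasal pools. For NR2E1, HRASLS and OPTC the class therefore does not show that maxillary and mandibular levels were alike. Every maxillary array of NR2E1 lay below every mandibular one. With a pseudocount of 1, NR2E1, SOX3 and OPTC lost this class, and the others of the 8 kept it.

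The class like the frontonasal mass held 60 probe sets (0.156%), 18 of them higher and 42 lower in maxillary than in mandibular pools. Counted by the probe set of highest mean signal, it held 34 genes (0.261%). Of its 8 leading genes, 7 were higher in the mandibular bud. BHLHE22, a basic helix-loop-helix repressor, measured 39.6, 46.1 and 50.7 in the maxillary, 330.3, 319 and 411 in the mandibular and 43.1, 41.3 and 43.9 in the frontonasal pools. Maxillary and frontonasal arrays lay near background and overlapped, 7.77-fold below the mandibular mean for the maxillary pools (adjusted p = 0.000228). MSX2, a homeobox gene that responds to BMP signals, measured 178, 194 and 154 in maxillary pools, 1052, 835 and 989.8 in mandibular pools and 121, 274 and 204 in frontonasal pools. It fell by 2.35 ± 0.24 against mandibular pools (adjusted p = 0.0115), and the maxillary minus frontonasal difference was -0.11 ± 0.24 (95% interval -0.67 to 0.44). CHODL, the membrane lectin chondrolectin, measured 241, 267 and 294 in the maxillary, 1448, 1229 and 1558 in the mandibular and 171, 352 and 250.0 in the frontonasal pools. The maxillary arrays lay inside the spread of the frontonasal ones and far below every mandibular array.

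LRRC17 was the exception among the 8 leading genes, since it was low only in the mandibular bud. This gene of a secreted leucine-rich repeat protein measured 465, 308 and 309.5 in maxillary pools, 74.9, 59.7 and 36.1 in mandibular pools and 245, 294 and 321 in frontonasal pools. Maxillary exceeded mandibular pools by 2.38 ± 0.23 (adjusted p = 0.00886) and differed from frontonasal pools by 0.30 ± 0.23 (95% interval -0.22 to 0.82). CXCL14, a chemokine, measured 371, 340.0 and 327 in the maxillary, 1319, 1276 and 1014 in the mandibular and 305, 259.6 and 318 in the frontonasal pools. CSRP3, a muscle LIM protein, was above background on mandibular arrays alone and at least 2.37-fold lower in maxillary pools (adjusted p = 0.00192). NPY, the gene of neuropeptide Y, measured 68.0, 80.1 and 74.2 in maxillary pools, 289, 267 and 324 in mandibular pools and 31.5, 49.8 and 46.0 in frontonasal pools. It was lower by 1.78 ± 0.14 in maxillary than in mandibular pools (adjusted p = 0.00254), but its maxillary arrays all lay above the frontonasal ones, and without frontonasal pool 2 it was between both. LOC417741, with no role given, was the last of the 8 and fell by 1.96 ± 0.26 (adjusted p = 0.0327). Of the 9 fits with 1 array left out, BHLHE22, CSRP3 and CXCL14 kept the class in all 9, LRRC17 and CHODL in 7, NPY in 5, MSX2 in 4 and LOC417741 in 1.

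Among jaw regulators, the lower-jaw gene DLX5 was also like the frontonasal mass, at 1649, 1515 and 1231 in maxillary pools, 3603, 2922 and 3222 in mandibular pools and 2043, 1628 and 2153 in frontonasal pools. Every maxillary array was below every mandibular array (by 1.15 ± 0.15 on the log2 scale, adjusted p = 0.0280), while maxillary and frontonasal arrays overlapped. A second, dimmer DLX5 probe set ran the other way, with means of 157 in maxillary, 77.6 in mandibular and 4.94 in frontonasal pools, so the direction for DLX5 depends on the probe set. The brighter one kept the class in 3 of the 9 fits with an array left out, and passed against the neighbour average in 1 of them. ALX1, a homeobox gene of frontonasal and eye-region mesenchyme, and MSX1 met the rule in the fit of all arrays, but ALX1 kept it in 2 of 15 other settings and MSX1 in none of the 9 fits with an array left out. HAND2, a target of endothelin signalling, measured 5.27, 16.6 and 3.68 in the maxillary, 204, 196 and 171 in the mandibular and 5.15, 50.0 and 3.09 in the frontonasal pools. It was not above background on any maxillary array, which puts it at least 5.39-fold below mandibular pools (adjusted p = 0.0336), and it met the rule for being like the frontonasal mass without frontonasal pool 2, whose signal was the highest of its group.

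Between both neighbours, called higher than one and lower than the other, lay 6 probe sets (0.0156%) of 4 genes (0.0307%). They ran both ways, 1 gene with the mandibular prominence highest and 3 with the frontonasal mass highest. EPHA3, a receptor for ephrin ligands, measured 299, 248 and 235 in maxillary pools, 797, 663 and 777 in mandibular pools and 103, 154 and 90.5 in frontonasal pools. The groups did not overlap, and the maxillary mean lay 1.46 ± 0.18 below the mandibular one (adjusted p = 0.0233) and 1.09 ± 0.18 above the frontonasal one (adjusted p = 0.0178). EYA2, a transcription cofactor of the sensory placodes, measured 189, 229 and 259 in the maxillary, 86.0, 76.9 and 91.0 in the mandibular and 599, 472 and 648 in the frontonasal pools. Its maxillary level stood about midway on the log2 scale, at a position of 0.51 where 0 is the frontonasal and 1 the mandibular level. TOM1L1, an adaptor of membrane traffic, and ATP6AP1L, related to an accessory subunit of the proton pump, stood at positions of 0.47 and 0.52, with the frontonasal pools highest. Each of the 4 genes lost this class in 5 to 8 of the 9 fits with 1 array left out and kept its directions in all 9.

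**Figure D3:**
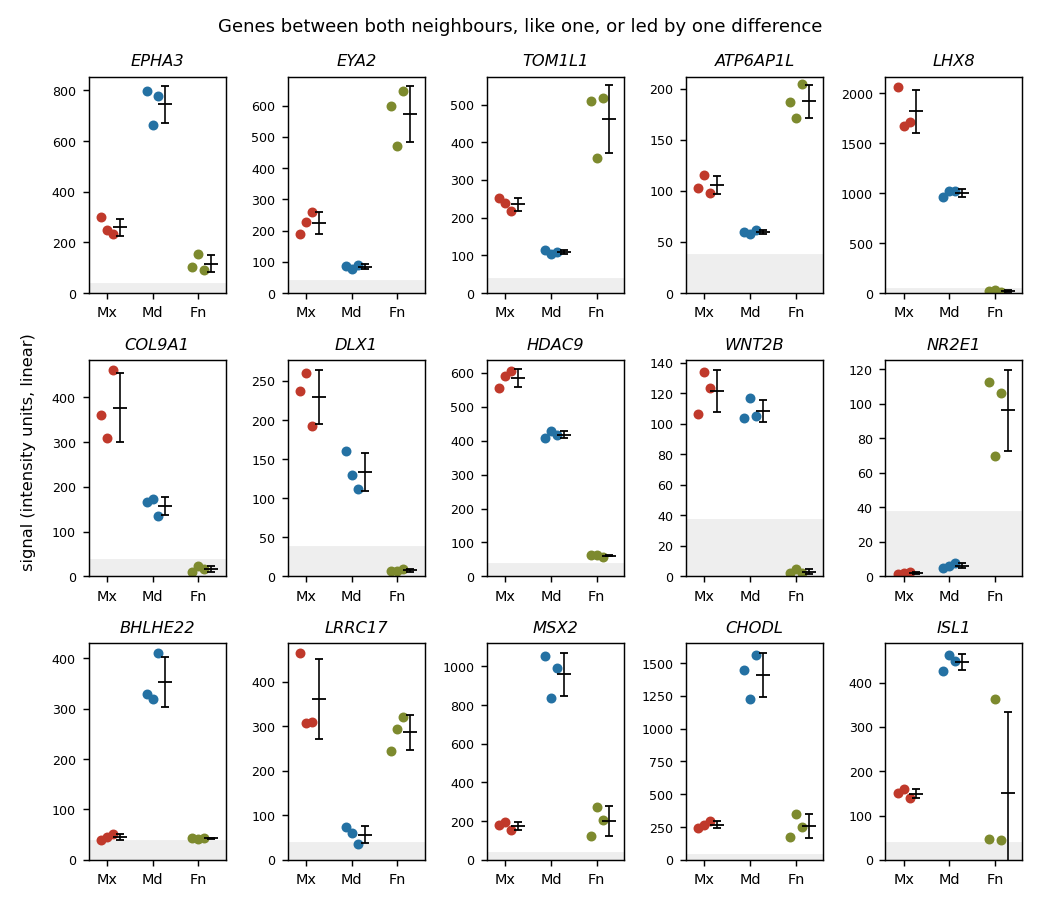
Signal of 15 further genes by array, drawn as in the plot of genes apart from both neighbours (points are arrays, bars the mean ± SD of n = 3, grey band up to a background of 37.1, linear axes from 0). EPHA3 to ATP6AP1L have the maxillary (Mx) arrays between the mandibular (Md) and frontonasal (Fn) arrays, LHX8 to WNT2B have them high with the mandibular ones and far above the frontonasal ones, NR2E1 has both arch groups near 0, BHLHE22 to CHODL have them near the frontonasal level, and ISL1 has frontonasal pool 2 far above the other frontonasal pools.

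Without frontonasal pool 2 the number between both neighbours was 22 probe sets of 18 genes, and all 6 of the earlier ones were among them. ISL1, a LIM homeobox gene of arch mesoderm, epithelium and sensory neurons, was one of those added. It measured 150.4, 159 and 139 in maxillary pools, 427, 463 and 448 in mandibular pools and 47.6, 363 and 45.0 in frontonasal pools. The maxillary arrays were tightly grouped below all mandibular arrays, and frontonasal pools 1 and 3 lay well below them, but pool 2 lay nearer the mandibular level than theirs. SIX3, of forebrain and eye, RET, a receptor of neural crest, and KDR, a receptor of endothelium, were added as well. KDR measured 83.9, 82.7 and 91.1 in maxillary pools, 134, 134 and 138 in mandibular pools and 53.7, 127 and 55.7 in frontonasal pools. The signal of visceral genes moved with pool 2 in the same way, for example the fibrinogen gene FGB at 49.5, 2292 and 50.6 in frontonasal pools 1, 2 and 3, and its part in these changes was not tested. The count like the frontonasal mass was 98 without that pool, 54 of them shared with the 60, and the count called against the neighbour average was 329, with 222 shared with the 283.

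To describe how far the maxillary level lay from each neighbour, its position was computed for all 974 probe sets called between mandibular and frontonasal pools. This is a description with no test, since the same neighbour arrays chose the probe sets and set the scale. The median position was 0.81 (quartiles 0.53 and 1.02), nearer the mandibular level of 1 than the frontonasal level of 0. It was 0.79, 0.83 and 0.81 for the 3 maxillary arrays taken singly. Only 46 probe sets (4.72%) lay beyond the frontonasal level and 62 (6.37%) from there to 0.25, against 285 (29.3%) from 0.75 up to the mandibular level and 262 (26.9%) beyond it. The middle, from 0.25 to 0.75, held 319 (32.8%). Where the mandibular pools were the higher neighbour (454 probe sets) the median was 0.71, and where the frontonasal pools were the higher (520) it was 0.87. Without frontonasal pool 2 the median over the 1089 probe sets then called was 0.80 (quartiles 0.54 and 1.01).

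**Figure D4:**
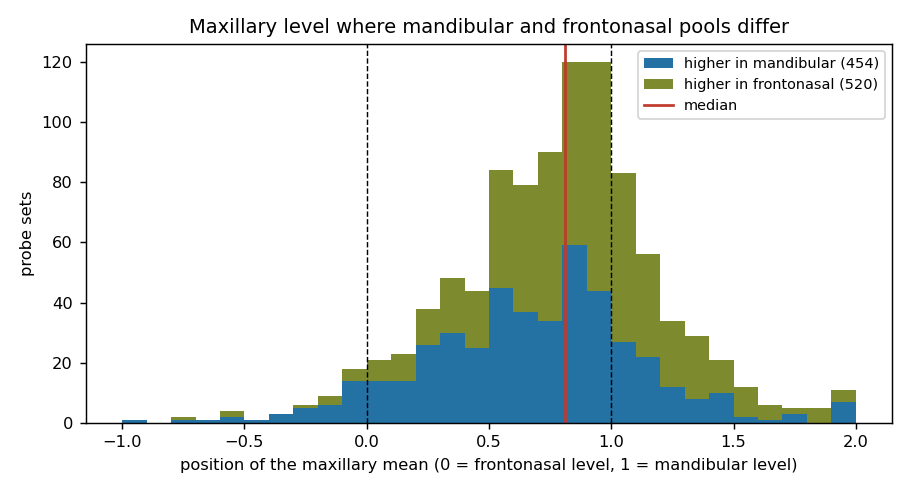
Number of probe sets (vertical axis) by the position of the maxillary mean between its neighbours (horizontal axis, no unit, 0 the frontonasal and 1 the mandibular level of log2(signal + 16)), for the 974 probe sets called between mandibular and frontonasal pools, stacked by which neighbour was higher. The end bars also hold all values beyond the axis, and the red line at the median of 0.81 shows most of the distribution lying nearer the mandibular level.

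Of a panel of 47 regulators of facial patterning, 42 were measured by a probe set with 1 gene, and 8 rose and 6 fell against the neighbour average (of all 13009 genes, 0.415% and 0.761%). By class, 12 were like the mandibular prominence, 4 like the frontonasal mass, 1 between both, 3 outside both and 22 in none. Without frontonasal pool 2, 8 rose and 8 fell. The arch mesenchyme genes PITX1, PAX9 and TWIST2 were like the mandibular prominence and rose over the average by 0.88 ± 0.12, 0.93 ± 0.12 and 1.08 ± 0.19 (adjusted p = 0.0185, 0.0163 and 0.0445). With 1 array left out, these 3 calls were lost in 6, 3 and 8 of 9 fits. TFAP2B and PAX7, of crest and nasal region, were also like it but low. TFAP2B fell by 0.93 ± 0.14 against the average (adjusted p = 0.0234, lost in 7 of 9 such fits), and PAX7 was not above background in maxillary or mandibular pools and was at least 2.19-fold below frontonasal pools. PAX6, the eye and nasal placode gene, measured 116, 87.4 and 79.5 in maxillary pools, 34.6, 24.1 and 47.2 in mandibular pools and 156, 151 and 186 in frontonasal pools. It lay between the neighbours with no overlap but passed against neither (adjusted p = 0.0697 and 0.104). TBX22, a palate gene, measured 169, 124 and 81.2 in the maxillary, 75.1, 83.6 and 72.5 in the mandibular and 695, 340.4 and 456 in the frontonasal pools, and its maxillary arrays spread from within the mandibular range to above it. SHH and EDN1, signals from the epithelium, were not called against the average (adjusted p = 0.654 and 0.392).

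Of 25 gene lists, the one for the maxillary and proximal arch had 4 of 11 measured members higher than the neighbour average, beside 0.415% of all genes. These were LHX8, DLX1, RARB and MEIS2, a cofactor of homeobox proteins, the last by 0.63 ± 0.11 (adjusted p = 0.0435). With 1 array left out the count was 2 to 4, as RARB was lost in 5 and MEIS2 in 8 of 9 fits. The list was chosen with earlier results of these data known, and its median was 0.14 on the log2 scale, beside -0.01 over all genes. The mesenchyme list had 4 of 20 higher (PRRX2, FOXD3, TWIST2 and the crest regulator SNAI1), and 0 to 4 with 1 array left out. SOX10, a marker of crest and glia in that list, measured 302, 195 and 217 in maxillary pools, 73.3, 55.9 and 68.3 in mandibular pools and 244, 159 and 157 in frontonasal pools, and was like the frontonasal mass. The list of skeletal progenitors and matrix had 3 of 24 higher, the collagen chains COL9A1 and COL9A3 and the cartilage matrix gene MATN4 (by 0.78 ± 0.09, adjusted p = 0.00796), and kept 3 or 4 with 1 array left out. By their probe sets of highest mean signal its other collagens did not pass, COL2A1 for example at 212, 207 and 153 in maxillary pools, 208, 186 and 146 in mandibular pools and 447, 186 and 182 in frontonasal pools. A dimmer COL11A1 probe set did pass and lay outside both neighbours on the high side. Its means were 366.7 in maxillary, 178.3 in mandibular and 217.8 in frontonasal pools (limma adjusted p = 0.017 against the average).

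Among signal pathways, calls against the average are read beside 0.415% of all genes higher and 0.761% lower. The WNT list had 2 of 30 higher (WNT2B and the receptor FZD1) and 1 lower (the antagonist SFRP2), the BMP list 1 of 21 higher (its target ID1) and the retinoid list 1 of 14 higher (RARB). The Notch list had 3 of 14 lower, the ligand DLL1, the modifier LFNG and the target HES5. All 3 were like the mandibular prominence, and HES5 measured 47.5, 29.2 and 43.3 in maxillary pools, 71.5, 59.8 and 59.1 in mandibular pools and 192, 171 and 199 in frontonasal pools. LFNG had means of 726 in maxillary, 1027 in mandibular and 1323 in frontonasal pools. Its mandibular and frontonasal pools were not called apart (limma adjusted p = 0.0995), and it lost the class with quantile normalization. A second, dimmer probe set of each of these 3 genes was called in no contrast. Against the average its limma adjusted p was 0.809 for DLL1, 0.98 for LFNG and 0.354 for HES5. The FGF list had 1 of 21 lower, FGF13, and the hedgehog list had none of 12 in either direction by limma. At an unadjusted p under 0.05 there were 9 WNT, 3 BMP, 4 retinoid, 6 Notch, 8 FGF and 0 hedgehog genes, beside 11.8% of all genes. Of the Notch genes 5 were lower, and of the FGF genes 7. With 1 array left out the called counts were 1 to 3 higher and 0 to 1 lower for WNT, 0 to 2 higher for BMP, 0 to 1 higher for retinoid, 1 to 3 lower for Notch and 1 to 2 lower for FGF genes. The hedgehog receptor and target PTCH1 measured 1107, 1378 and 1118 in the maxillary, 1983, 1765 and 1769 in the mandibular and 554, 748 and 644 in the frontonasal pools. Its maxillary arrays lay below all mandibular and above all frontonasal arrays, with a call against the frontonasal pools only (adjusted p = 0.0122, against 0.177 for the mandibular pools). By the class rule it counted as like the mandibular prominence.

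Markers of other cell types moved with the maxillary group in some lists. The summed signal of 14 neuronal genes was 863 to 921 in maxillary pools, 1564 to 1730 in mandibular pools and 958 to 1442 in frontonasal pools, so every maxillary array was below every other. Of the 14, STMN2 fell against the average, and NEUROG2 passed the test but was not above background on any array. The sum of 10 epithelial genes was likewise lowest in maxillary pools, 5848 to 6738, against 7030 to 7403 in mandibular and 8363 to 9701 in frontonasal pools, and 1 member, the desmosome gene DSP, fell (by 0.58 ± 0.09, adjusted p = 0.0343). The other DSP probe sets, dimmer but above background on every array, were called in no contrast (limma adjusted p = 0.379 and 0.404 against the average). Without the brightest member of each list, DCX and EPCAM, the maxillary arrays were still the lowest (603 to 645 for neuronal and 3405 to 4083 for epithelial genes). The part of such cells in the fall of STMN2 was not tested. The lens, eye and nasal placode list was lowest in maxillary pools too, at 2434 to 2805, against 4105 to 4659 in mandibular and 3554 to 4382 in frontonasal pools, but DLX5, which is also a jaw mesenchyme gene, was its brightest member and its single call. Without DLX5 the sums were 1156 to 1217, 1056 to 1295 and 1926 to 2308, so maxillary and mandibular pools overlapped. The endothelial, leukocyte, cell cycle, HOX and visceral lists held no call against the neighbour average in either direction by limma. In that contrast, 3 of 19, 1 of 12, 2 of 22, 0 of 9 and 4 of 23 members had an unadjusted p under 0.05, beside 11.8% of all genes. Against the frontonasal pools alone, 3 of the 19 endothelial genes were called higher in maxillary pools, beside 170 of all 13009 genes, and all 3 were like the mandibular prominence. Without frontonasal pool 2, 6 of the 19 were called higher. The count at hand for that fit is of probe sets, not genes: 363 of all 38439, beside 350 in the fit of all arrays. Of 11 erythroid genes, 1 rose, the carbonic anhydrase gene CA2 (by 1.21 ± 0.19, adjusted p = 0.0299), a call lost in 6 of 9 fits with 1 array left out, as that of DSP was.

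**Figure D5:**
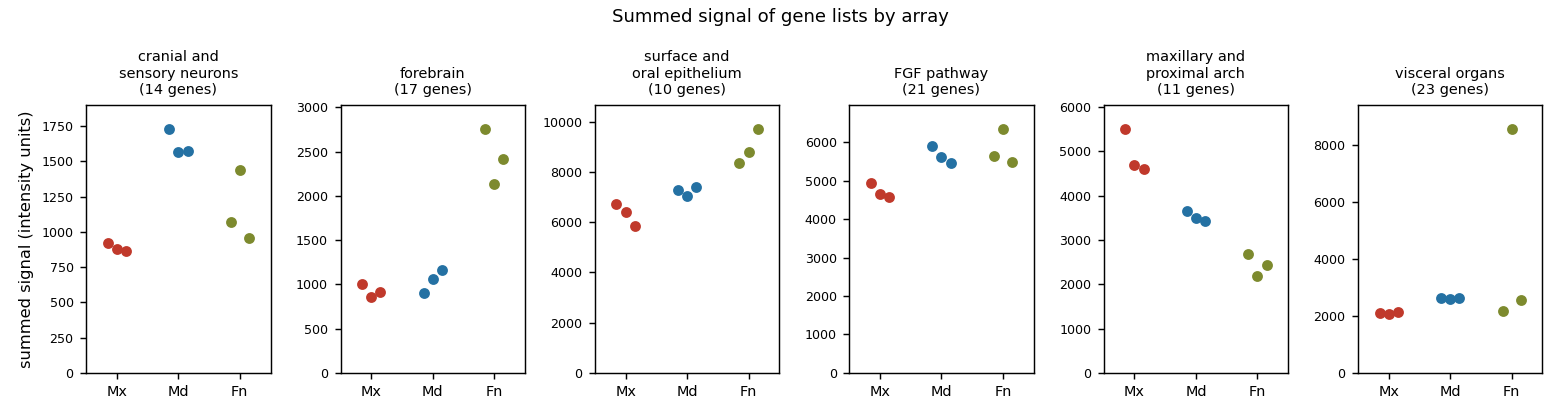
Summed signal (vertical axes, linear intensity units from 0) of 6 gene lists, a point per array, for maxillary (Mx), mandibular (Md) and frontonasal (Fn) pools. The 3 maxillary points are the lowest for neurons, epithelium and the FGF pathway, overlap the mandibular ones below the frontonasal ones for forebrain, and are the highest for the maxillary and proximal arch list, while frontonasal pool 2 stands alone at 8545 for visceral organs.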

How the data were processed

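RNA of each pool was labelled from 500 ng with the 2-cycle Affymetrix protocol, per the labels' protocols. The deposited values of 38535 probe sets on each of 9 arrays were taken as linear intensity values that had already been scaled. The basis for this is their trimmed mean (2% off each end), which was 150.03 on every array. The sources used here do not name the software that summarised the probes. From the deposited intensity values, 96 control probe sets were left out, each array was brought to a common median (by factors of 0.961 to 1.04), and the log2(signal + 16) values were tested, so that differences of dim genes are understated. Background was each array's 95th percentile of 598 viral and reporter probe sets (31.6 to 37.1). A group below it on all 3 arrays has only a bound: "at least" folds compare mean log2 signals with the dimmer group raised to each array's background.

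All 9 arrays entered one model with a mean per prominence and 6 residual degrees of freedom in limma 3.58.1 (R 4.3.3), which was tested on simulated data, with Benjamini-Hochberg adjustment over 38439 probe sets of a contrast. Calls are adjusted p under 0.05, and errors of log2 differences are SE. A gene is its probe set of highest mean signal. Log2 differences from the neighbour average are fitted values, also where a group was below background. List counts with 1 array left out, counts without frontonasal pool 2 and list sums without the brightest member were added after seeing the data. The platform annotation gave 1 gene to 27168 probe sets, several to 177 and none to 11094. Of the 27168, 26853 were matched by gene identifier to a GRCg7b gene table, from which their symbols were taken. Genes named are the 8 most different per class and direction, the 8 furthest from the neighbour average with no overlap, a panel of 47 and called members of 25 lists. The members and lists were chosen with earlier results of these data known. No sequences were used here.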

Additional observations from a re-analysis of the deposited data

How the results depend on the processing

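Each count was recomputed with 1 choice changed at a time. With a pseudocount of 1 the counts were 113 called against the neighbour average (42 higher, 71 lower), 4 and 9 outside both neighbours on the high and low side, 2 between both, 367 like the mandibular prominence and 16 like the frontonasal mass. With only probe sets above background on at least 3 arrays they were 428 called (160 higher), 28 and 28 outside and 18 between. A prior variance that follows the mean signal gave 21 outside on the high side, an interval within 1.5-fold gave 37 like the frontonasal mass, adjusting the larger of the 2 pairwise p values gave 0 and 0 outside, and leaving out frontonasal pool 2 gave 22 between and 98 like the frontonasal mass. A pseudocount of 64, no further scaling and quantile normalization kept every count within 1.5 times. Leaving out each array in turn gave 99 to 329 called (37 to 132 higher, 57 to 197 lower), 1 to 17 and 3 to 21 outside, 0 to 22 between, 349 to 693 like the mandibular prominence and 9 to 98 like the frontonasal mass. The count called was 99 to 145 without a maxillary or mandibular array and 213 to 329 without a frontonasal one. The cause of these changes was not tested.

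Between pools of the same number, the correlations of deviations from the group means were all positive, at 0.0166 to 0.12. The labels name no batch, and these correlations cannot show whether such pools share more than their number. With the replicate number as a block, 169 probe sets were called (66 higher, 103 lower), 4 and 7 lay outside, 2 between and 29 like the frontonasal mass.

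Signs turned only in genes that were not called against the neighbour average. EYA2, SIX3 and CYP26A1 gave 0.027, 0.10 and 0.028 with a pseudocount of 1, TOM1L1 -0.0014 with 64, EYA2 and EDNRA 7e-04 and 0.0086 without scaling, and EDNRA 0.017 with quantile normalization. With single arrays left out, the ranges were -0.11 to 0.099 for EYA2, -0.078 to 0.099 for EDNRA, -0.18 to 0.15 for CYP26A1, -0.094 to 0.18 for TWIST1, -0.094 to 0.33 for BARX1, -0.087 to 0.011 for ATP6AP1L, -0.031 to 0.11 for TOM1L1 and -0.033 to 0.21 for ALX4. Arrays number 3 per group, which limits the precision.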
